A study of Mus musculus with 8 samples.

Results

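In the m6A peak lists of mouse gastrocnemius muscle, 1311 wide unspliced regions were called in all 4 libraries, out of 13116 regions in all. Any peaks with 1 or more bases in common on a strand were joined, across the lists, into a region. Of the linked regions, 4541 held peaks of all 4 lists, and in 3229 of those every peak was a single block, that is, it crossed no intron. The 1311 regions described here were those of 600 bases or more from the smallest start to the largest end. The other 1918 unspliced regions of all 4 lists were shorter, and 1312 regions held a spliced peak. The regions were thus chosen by presence in every list, block number and length, and these measures are given only as a description. The regions carried 1138 gene labels, a few of them joint labels of overlapping genes, of which 992 held 1 such region, 126 held 2 and 20 held 3 or more. By RefSeq, 1284 regions lay in protein-coding genes, 19 in long noncoding RNAs and 4 in transcribed pseudogenes. The names of 4 regions matched no single RefSeq gene on the region's chromosome.

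N6-methyladenosine (m6A) is a methyl mark that a nuclear methyltransferase complex places on adenosines within a short sequence context while RNA is being made. It is known to lie mostly in long internal exons, around stop codons and in 3′ untranslated regions, and it is bound by reader proteins that act on RNA decay and translation. Stretches of exon near splice junctions carry little of it, so long exons and single-exon transcripts are where broad methylated stretches have room to form. In MeRIP-seq, fragmented RNA is captured with an antibody against m6A and sequenced beside uncaptured input, so a wide peak can hold several methylated sites that fragment length does not separate.

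The muscles came from male C57BL/6 mice aged 10 weeks. A gastrocnemius, the large calf muscle, was collected 14 days after its nerve supply was removed (denervated), and the muscle of the opposite, innervated leg served as control. Each group had 2 immunoprecipitated libraries, numbered 1 and 2, each called by the authors against its own input. The labels name no genotype, transgene or drug, and they leave unsaid whether each number stands for its own animal. Spreads and p-values below therefore cover differences between these samples only, and these may be technical. Read counts and depth are unknown here, so a narrower peak cannot be read as less methylation, and transcript levels were not analysed here. In whole muscle, fewer cells of a type and less RNA per cell cannot be told apart.

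Member regions that began exactly at an annotated transcript start are shown first, because there a peak edge can be set against sequence. Of the 1311 regions, 27 overlapped a RefSeq promoter window (250 bases before to 50 after the start) and 21 had their 5′ edge exactly at the annotated start. All 21 lay on the minus strand. Counted apart, by gene span, 21 of 733 placed regions on the minus strand and 0 of 574 on the plus strand began at its first base. These sets differ: the Rbm15 region began at an annotated start but 1171 bases after the start of its gene span. At the other end, 5 regions on the plus strand and 0 on the minus strand stopped at the last base of the span. An edge at an annotated start was thus seen only on the strand where the start is the higher coordinate. In 4 of the 21 regions at an annotated start, every library reached that start. They were Jun and Gas1, whose transcripts have no intron, the angiogenic growth factor gene Vegfa, and Ccdc85b. In 2 others, Junb and Ppp1r3a, both denervated libraries reached the start and both innervated libraries stopped short of it. In Gab1, an adaptor of receptor tyrosine kinases, the reverse held. Both innervated libraries reached the start and both denervated libraries began 50 bases after it, a shift of 1 step of the peak calls, at their resolution. Stretches of 30 bases of the transcribed strand are from RefSeq on GRCm38.p6, the assembly of mm10, written 5′ to 3′. Capitals mark the letters GGACT in Jun and Junb and the first transcribed base in the others.
Jun, chr4:95052185-95052214, minus strand: caggctggataaGGACTcagagttgcactg
Junb, chr8:84978699-84978728, minus strand: gccgagcactggGGACTttgagggtggcca
Gas1, chr13:60177506-60177535, minus strand: Agcgggcaagcctggagcgcgcggggccag
Vegfa, chr17:46032348-46032377, minus strand: Agcgcagaggcttggggcagccgagctgca
Ccdc85b, chr19:5457534-5457563, minus strand: Tgcctcgtgcccaccccagggtagctgctg
Ppp1r3a, chr6:14755245-14755274, minus strand: Actcttatttgataaatcagagagaccaat

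The letters GGACT, a common form of the m6A context, were searched in the first 50 transcribed bases on both strands. They were found on the sense strand in 2 of the 21 windows, those of Jun and Junb, and their reverse complement AGTCC in 0. Of all 32851 promoter windows, 5.76% held GGACT and 4.87% held AGTCC in the same bases. The first base was an adenosine in 7 of the 21 windows and in 34.4% of all windows. A match here is a description of letters, and sequence further inside the regions was not analysed here. In Junb, a subunit of the AP-1 transcription factor, the peaks of the innervated libraries began 249 and 298 bases after the start, and those of the denervated libraries at the start. In Ppp1r3a, which targets protein phosphatase 1 to glycogen in muscle, the innervated peaks began 199 and 149 bases after the start and the denervated peaks at it. In Irs1, an adaptor of the insulin receptor, only denervated library 2 stopped short, by 349 bases. These genes were picked once their values had been seen.

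A miRNA hairpin lay inside 1 member region. Of 1005 hairpins in the RefSeq table, Mir671 on chromosome 5 (24592114 to 24592211) lay within the region of Chpf2, a chondroitin-synthesis gene, on the same strand (chr5:24591693-24592436). In all 4 libraries the stretch from first peak start to last peak end enclosed Mir671. Whether a gap between peaks fell on it was not analysed here. None of the shorter unspliced regions held a hairpin. Its mature arms are given with the seed, bases 2 to 8, in capitals, because reads of the host RNA and of the hairpin cannot be told apart in this stretch.
mmu-miR-671-5p: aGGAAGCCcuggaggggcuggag
mmu-miR-671-3p: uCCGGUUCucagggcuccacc
The Chpf2 region was covered over 448 and 547 bases in the innervated libraries and 744 and 547 bases in the denervated libraries.

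The regions were 600 to 3537 bases long, with a median of 846 and quartiles of 699 and 1093. Among them, 398 were 1000 bases or longer and 31 were 2000 or longer. Just inside the limit, at 600 bases, stood regions of the RNA helicase gene Ddx21, of Ylpm1 and of the histone acetyltransferase gene Kat6b. Just outside it, at 599 bases, stood regions of the sodium/proton exchanger gene Slc9a2, of the centrosomal gene Cep350 and of Cep85l. A wide region was not always a wide peak. A single peak of 600 bases or more was present in all 4 libraries in 294 regions (22.4%), in 3 libraries in 191, in 2 in 226 and in 1 in 365, and in no library in 235 (17.9%). The last set reached 600 bases only because narrower peaks of different libraries overlapped in a chain. Each library covered its region with 1 peak in 378 cases. The stretch covered in all 4 libraries had a median share of 57.2% of the region's length, against 50.2% in the shorter unspliced regions. In 6 regions, in Fam78a, Kcnf1, Pcnx, Shisa2, Vcan and Wbscr17, no base was covered in all 4 libraries. Peak widths came in steps: 92.7% to 93.5% of unspliced peaks were within 5 bases of a multiple of 50, so differences of 1 step are at the resolution of the calls.

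Median widths differed more between replicate numbers than between groups. The median covered width was 647 and 698 bases in innervated libraries 1 and 2, and 649 and 699 bases in denervated libraries 1 and 2. Both libraries numbered 2 thus had larger medians than both libraries numbered 1, by about 1 step of the peak calls, and the groups overlapped. Region by region, the width deviations of same-numbered libraries correlated at -0.006, so this pattern describes the medians only. The group means of these medians were 672.5 ± 36.1 (SD, n = 2) innervated and 674 ± 35.4 (SD, n = 2) denervated. The difference of 1.5 bases was smaller than either SD. No test of it is given, because widths make up the length that chose the regions. It was -24 bases without innervated library 1, -23.5 without denervated library 2, 27 without innervated library 2 and 26.5 without denervated library 1. Mean widths were 723.6 and 787.2 bases in the innervated libraries and 728.8 and 802.0 in the denervated libraries, a difference of 9.98 bases.

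**Figure D1:**
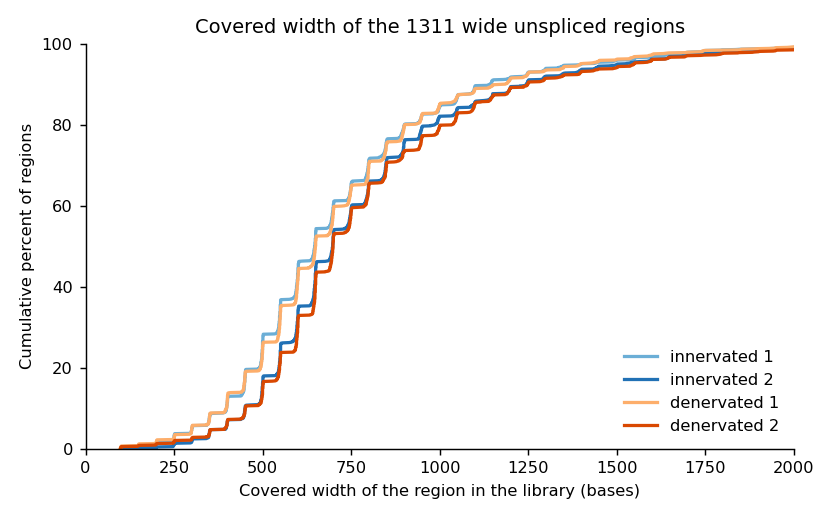
Cumulative percent of the 1311 wide unspliced regions (y axis) against the width covered in each library in bases (x axis, shown to 2000), 1 line per library. The lines of innervated 1 and denervated 1 run together, and those of innervated 2 and denervated 2 lie to their right, with medians of 647, 649, 698 and 699 bases; the steps are the 50-base steps of the peak calls.

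The libraries numbered 2 more often covered a region with 1 peak, where the libraries numbered 1 held several. A region was covered by 1 peak in 54.8% and 61.5% of cases in the innervated libraries and in 54.5% and 64.1% in the denervated libraries. Denervated library 2 was the widest of the 4 in 444 regions and innervated library 1 the narrowest in 396. Denervated library 2 alone held 1 peak where the other 3 were split in 102 regions, against 41 for denervated library 1, 49 for innervated library 1 and 72 for innervated library 2. The overlap of covered bases, as the Jaccard index over all member regions, was 0.747 between the innervated and 0.740 between the denervated libraries. Between groups it ran from 0.718 to 0.741, so the 2 ranges overlapped. In the shorter unspliced regions the order of the libraries was less regular, with median widths of 253.5, 300, 298 and 299 bases in the order given above. Whether depth moved with these widths was not tested, since depth is unknown here.

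Both denervated libraries were wider than both innervated libraries in 225 regions (17.2%), and both innervated libraries were wider than both denervated in 211 (16.1%). Over all 3229 unspliced regions of all 4 lists the shares were 13.7% and 13.4%, and in the regions under the length limit 11.4% and 11.6%. The 2 directions were thus nearly balanced. Widths enter the length by which the regions were chosen, so these shares are a description. The median difference was 198.5 bases in the first set and -175 bases in the second. Leaving out a library loosens the criterion. Regions wider in denervated muscle then numbered 334 without innervated library 1, 480 without innervated library 2, 529 without denervated library 1 and 322 without denervated library 2. Regions wider in innervated muscle numbered 428, 266, 320 and 464 in that order.

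**Figure D2:**
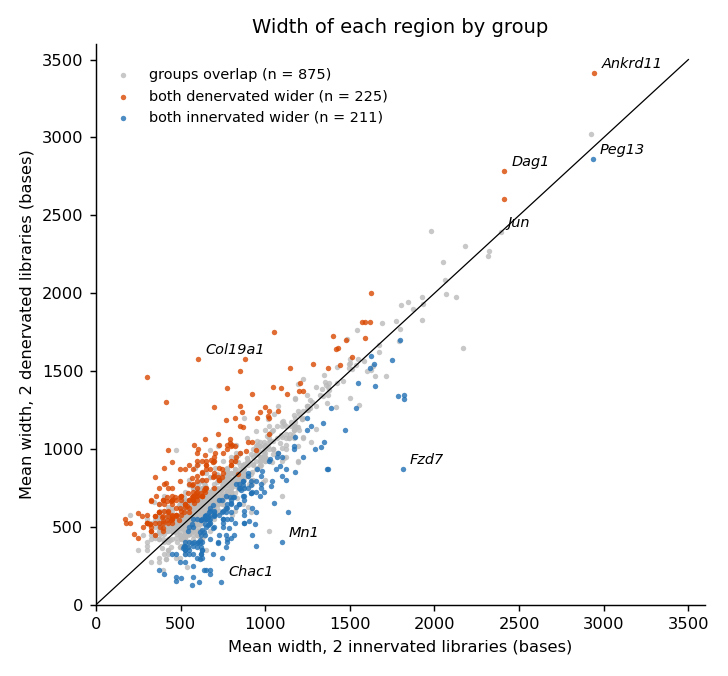
Mean covered width of each of the 1311 regions in the 2 denervated libraries (y axis, bases) against that in the 2 innervated libraries (x axis, bases), with the line of equality. Coloured points are the 225 and 211 regions whose groups do not overlap; they lie on both sides of the line, and Col19a1 and Fzd7 are among the farthest from it.

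The 10 widest regions by median width were led by Ankrd11. In Ankrd11, a chromatin co-regulator, the region on chr8:122892075-122895611 was covered over 3044 and 2843 bases in the innervated libraries and 3288 and 3537 bases in the denervated libraries. Both denervated libraries were wider, but measured from first start to last end the means turned, with a difference of -25 bases. The innervated libraries held 5 and 4 peaks there and the denervated libraries 2 and 1. Dido1, a chromatin reader, followed with 2898, 2949, 2798 and 3245 bases in the order innervated 1, innervated 2, denervated 1 and denervated 2, an order kept for the rest of the text, and its groups overlapped. The imprinted long noncoding RNA Peg13 was covered over 2984, 2886, 2836 and 2885 bases. Its innervated libraries were wider by a margin of 1 base, and by the longest single peak the order turned in the mean only, by 398.5 bases. The longest peaks were 2984, 1940, 2836 and 2885 bases, so innervated library 1 still held the longest and innervated library 2, split into 2 peaks, the shortest. Dag1 encodes dystroglycan, the receptor that ties the muscle fibre membrane to laminin. Its region (chr9:108206798-108209629) spanned 2487, 2337, 2782 and 2782 covered bases, 4 and 3 peaks in the innervated libraries and 1 peak in each denervated library. From first start to last end, its denervated mean was lower, by a difference of -25 bases.

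Igfbp5, a secreted binding protein of insulin-like growth factors, was covered over 2384, 2433, 2580 and 2630 bases, without overlap of the groups. Jun, the AP-1 subunit whose start is shown above, was covered over 2341, 2440, 2341 and 2440 bases. Its widths were equal between groups and differed by number. The repressor gene Cic had 2296, 2345, 2195 and 2345 bases, and Fem1a, a substrate receptor of a ubiquitin ligase, 2093, 2540, 1992 and 2489. In Cilp, a cartilage and matrix protein gene, the widths were 1682, 2276, 2275 and 2522 bases. Rbm15, a subunit of the m6A methyltransferase complex, had 2678, 1687, 1587 and 3022 bases. In Cic, Fem1a, Cilp and Rbm15 the groups overlapped.

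Of the regions wider in both denervated libraries, the 8 with the largest differences are given here. Zfp521, a zinc finger regulator of transcription, was covered over 100, 501, 1391 and 1539 bases, the greatest difference among regions whose groups did not overlap (1164.5 bases). In Col19a1, a collagen gene, the region on chr1:24263028-24264627 was covered over 453 and 752 bases in innervated libraries, in 3 peaks each. In the denervated libraries 1 peak covered 1600 and 1550 bases. The groups of both genes stood far apart. The region named Evi2b/Gm21975, 2 overlapping genes whose reads cannot be assigned, had 366, 466, 1167 and 1438 bases. Garem, an adaptor in growth factor signalling, had 699, 699, 1247 and 1296 bases.

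In 4 further regions of that set, 1 library carried much of the difference. Spen, a transcriptional repressor that binds RNA, had 1403, 701, 1502 and 2000 bases, a difference of 699 that was 348 without innervated library 2, 450 without denervated library 2 and 1050 without innervated library 1. Alpk2, a kinase gene, had 1005, 754, 1253 and 1901 bases, a difference of 697.5 that was 373.5 without denervated library 2. Ahnak encodes a giant scaffold protein. Its region on chr19:9013091-9015040 had 953, 752, 1053 and 1950 bases, a difference of 649 that was 200.5 without denervated library 2 and 1097.5 without denervated library 1. In Wdr81, a gene of endosome function, the widths of 1147, 399, 1245 and 1542 bases differed by 620.5, by 246.5 without innervated library 2 and by 994.5 without innervated library 1.

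On the innervated side the widest differences included a Wnt receptor and an enzyme of glutathione breakdown. Fzd7, a Frizzled receptor of Wnt signals, was covered over 1836, 1787, 698 and 1046 bases (chr1:59482246-59484179), a difference of -939.5 bases. Its second member region, of 694 bases, also had no overlap, with 645, 694, 547 and 596 bases. Mn1, a transcriptional co-regulator, had 1049, 1148, 301 and 501 bases. Chac1, an enzyme of glutathione breakdown induced by cell stress, was covered over 737 bases in each innervated library and over 99 and 197 bases in the denervated libraries. In these regions the denervated libraries were lower, and 1 peak per library remained in Chac1. Ppl, the plakin-family linker periplakin, had 1249, 1497, 800 and 949 bases, and Fam43a had 1292, 1439, 746 and 995.

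For 3 regions wider in innervated muscle, a single library set much of the size. Plekhg2 had 948, 947, 599 and 151 bases, a difference of -572.5 that was -348.5 without denervated library 2. Cd248, a surface protein of stromal cells and pericytes, had 789, 1478, 595 and 594 bases, a difference of -539 that was -194.5 without innervated library 2 and -883.5 without innervated library 1. Gbp7, an interferon-induced GTPase, had 1745, 1892, 1048 and 1596 bases, a difference of -496.5 that was -222.5 without denervated library 1 and -770.5 without denervated library 2.

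**Figure D3:**
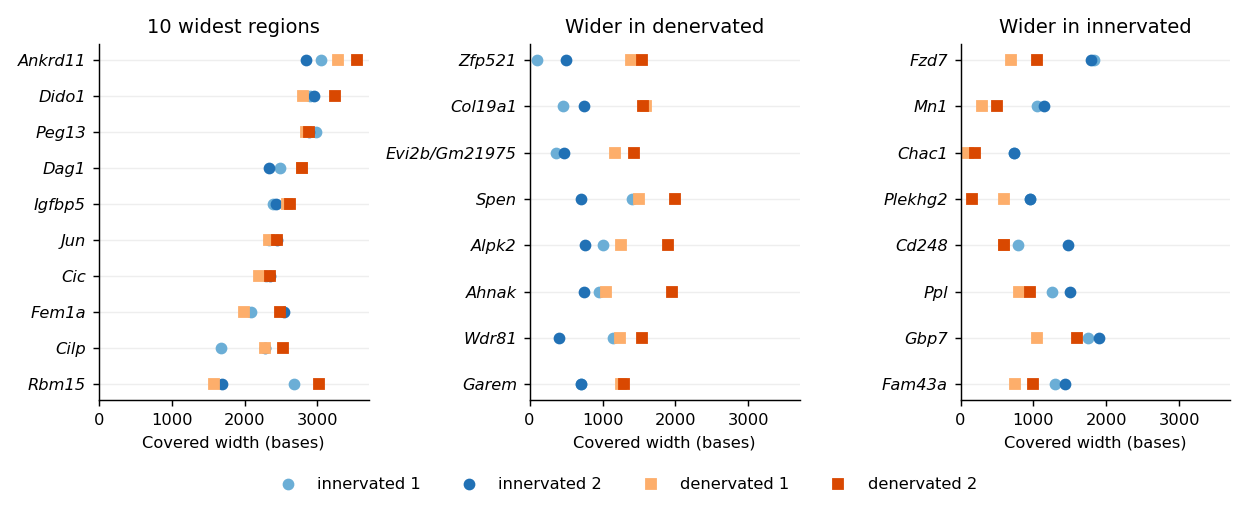
Covered width in bases (x axis) of 26 regions by library, circles for innervated and squares for denervated libraries, lighter for number 1 and darker for number 2. Left, the 10 regions with the largest median width; middle and right, the 8 regions with the largest difference in each direction among those whose groups do not overlap, from Zfp521 (100 and 501 against 1391 and 1539 bases) to Fzd7 (1836 and 1787 against 698 and 1046 bases) at the top.

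The authors' score ranks peaks within a list, and small scores were read as strong, which is uncertain because the sources used here do not say what the score measures. Each region was given the percentile of its smallest score within the library's list, with 100 at the smallest. Median percentiles of the member regions were 57.0, 55.9, 60.2 and 54.4, against 48.0, 50.2, 50.7 and 46.7 in the shorter unspliced regions. The wide regions thus ranked higher in 4 of 4 libraries, by 9.0, 5.7, 9.5 and 7.7 points, a mean of 8.0 (two-sided exact sign-flip permutation p = 0.125, the smallest that 4 libraries allow). When only the 50% of peaks with the smallest scores in each list were kept, the difference reversed. Wide regions then ranked lower, with a mean difference of -5.29 (two-sided exact sign-flip permutation p = 0.125, again the smallest possible). The direction thus depended on which peaks were kept. With equal numbers of peaks per list the difference was 5.21. A wide region often held several peaks, so its best score was drawn from more values, and the part of this in the difference was not tested. Across member regions, Spearman's correlation of covered width with the percentile was 0.14, 0.17, 0.19 and 0.12 in the 4 libraries, given as a description.

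Between the groups the percentiles did not differ beyond the spread between libraries: the group means of the medians were 56.47 ± 0.8 (SD, n = 2) innervated and 57.27 ± 4.1 (SD, n = 2) denervated. The difference was 0.799 points (two-sided exact permutation p = 1, smallest possible 0.333), and it was -2.10 without denervated library 1. Both denervated libraries ranked above both innervated libraries in 224 regions (17.1%), and the reverse held in 227 (17.3%). Over all unspliced regions of all 4 lists the shares were 17.3% and 17.7%, so the wide regions stood at the background. Lists differ in length. Ranked among the same 3229 regions in each library, 239 regions were higher in denervated and 234 in innervated muscle, against 18.4% and 17.8% of all. Of the 225 regions wider in denervated muscle, 53 also ranked higher there and 27 ranked higher in innervated muscle. Of the 211 wider in innervated muscle, 54 ranked higher there and 23 in denervated muscle. These joint counts have no share over all unspliced regions beside them. They are a description and cannot be read as a trait of the wide regions.

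The score was mostly a property of the gene. Among genes with at least 2 peaks in member regions, all of them had 1 identical score in 85.0% to 88.5% of genes, depending on the library. Ranks of several regions of a gene are therefore not separate measurements. The highest mean percentiles belonged to Coa4, a factor of respiratory complex IV assembly, to Jun (99.9, 99.7, 99.8 and 99.7), to the aminopeptidase gene Lnpep, to the deubiquitinase gene Vcpip1, to 3 regions of D830031N03Rik, which shared 98.2, 98.7, 97.9 and 99.3, and to Pura, a purine-rich element binding protein gene. These genes stood near the top in all 4 libraries. The lowest means belonged to regions of Gltscr1 (7.0, 2.3, 2.7 and 4.5), Zfp710, Nrip1, Zfp646 and Wdr81. A wide region could therefore have scores at either end of a list: the Wdr81 region spanned 100, 249, 399 and 696 bases at percentiles of 1.6, 2.5, 20.1 and 8.5.

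Some genes moved from one end of the list to the other between the groups. They were chosen after their values were seen. Nfil3, a leucine zipper repressor with roles in immune cells and the circadian clock, stood at percentiles of 1.2 and 2.9 in innervated and 94.0 and 99.2 in denervated libraries. The widths of its region (chr13:52967309-52967956) were 501, 599, 549 and 648 bases and overlapped. Fancf, a subunit of the Fanconi anaemia repair complex, stood at 10.6, 26.7, 95.7 and 92.1. Junb stood at 24.8, 29.7, 98.6 and 96.2, with widths of 1442, 1393, 1592 and 1691 bases (chr8:84977058-84978748). Both measures of Junb were higher in both denervated libraries. Carns1, the synthase of the muscle dipeptide carnosine, stood at 23.7, 2.1, 89.8 and 71.9 with overlapping widths.

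In the other direction, Pla2g15, a lysosomal phospholipase, stood at 88.9, 90.8, 10.6 and 17.8. Synpo, an actin-associated protein, held 2 member regions, both at 99.2 and 96.5 in innervated libraries and at 14.4 or 25.3 and 40.5 in denervated libraries. The innervated values of both genes were higher without overlap. Zfp553 (86.6, 66.6, 5.0 and 13.1), the microtubule crosslinker gene Mtcl1 (88.5, 93.7, 26.7 and 22.2) and the zinc finger gene Zbtb4 (95.9, 90.0, 15.7 and 41.1) followed. These are single regions out of 1311, with shares of non-overlap at the background, and were not tested.

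**Figure D4:**
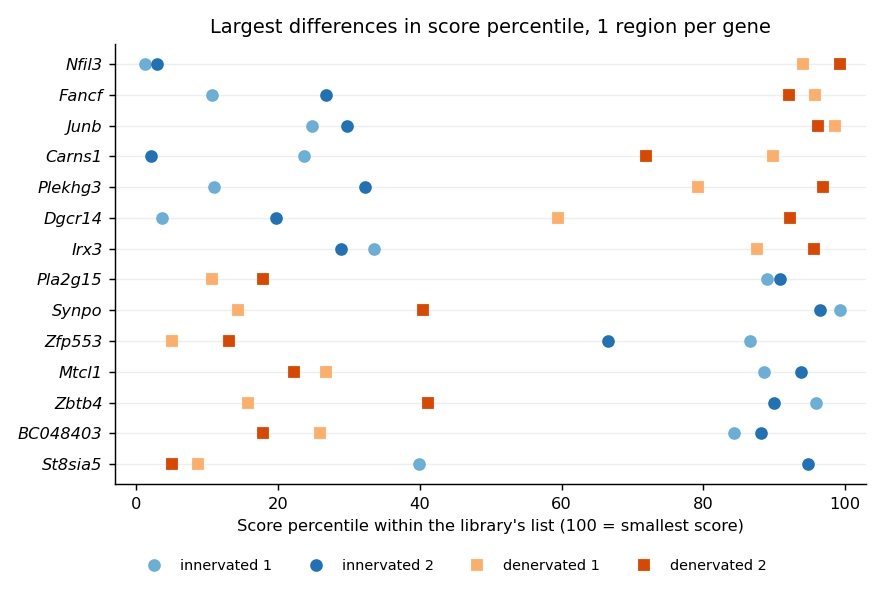
Score percentile within the library's list (x axis, 100 at the smallest score) for the genes with the largest difference between group means, 1 region per gene, circles for innervated and squares for denervated libraries. The upper 7 genes, from Nfil3 to Irx3, rank higher in both denervated libraries, and the lower 7, from Pla2g15 to St8sia5, in both innervated libraries.

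Most wide regions lay toward the 3′ end of their gene. Place was taken along the gene span in RefSeq on GRCm38.p6, introns included, for 1307 regions. The middle of the region lay at a median of 85.8% of the span, against 87.2% in the shorter unspliced regions. In the last 10% of the span lay 548 wide regions (41.9%), against 44.7% of the shorter ones, and in the first 10% 62 (4.7%), against 5.8%. The median distance from the region to the gene's end was 2401 bases. The middle of the span, in steps of 10% from 40% to 70%, held 77, 72 and 80 regions, or 5.9%, 5.5% and 6.1%, against 3.3%, 3.8% and 5.5% of the shorter ones. Assignment to exons and untranslated regions was not analysed here. Every one of the 1026 regions whose gene has a strand in the promoter table lay on that strand.

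**Figure D5:**
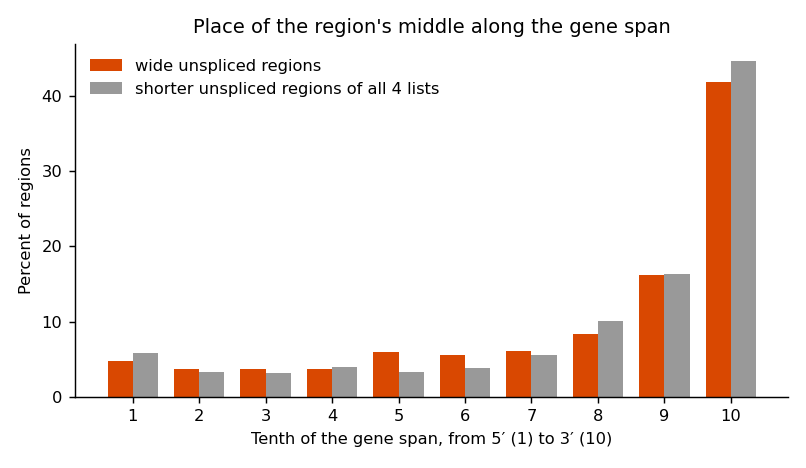
Percent of regions (y axis, from 0) by the step of 10% of the gene span that holds the region's middle (x axis, 1 at the 5′ end, 10 at the 3′ end), for wide and for shorter unspliced regions of all 4 lists. Both rise to the last step, with 41.9% and 44.7%.

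In 39 wide regions the region took up at least 50% of the whole gene span, as it did in 3 of the shorter ones. Shorter regions can fill that share only of shorter spans, so the length limit that chose the regions enters these counts. The counts are a description and cannot be read as a trait of the wide regions. The set of 39 held genes of short span, and several were immediate early genes, which are switched on quickly by growth signals and stress. The region covered 76.6% of the span of Jun, 91.9% of Junb and 51.8% of Jund, the 3 Jun-family AP-1 genes, and 90.3% of Ier2 and 56.1% of Ier5. Jund was covered over 1290, 1390, 1193 and 1142 bases, wider in innervated muscle, whereas Junb was wider in denervated muscle and Jun equal. Ier2 was covered over 983, 1228, 1032 and 1326 bases, with overlap. Gas1, a growth-arrest surface protein, was covered over 1989, 2137, 2038 and 2137 bases, 68.3% of its span. The small heat shock protein gene Hspb3, of muscle, was covered over 683, 635, 683 and 732 bases, and its region took up 93.7% of a span of 781 bases. Others were Hexim1, an inhibitor of transcription elongation, the linker histone gene H1f0, the thrombomodulin gene Thbd and Rhob, a small GTPase covered over 1386, 1386, 1238 and 1287 bases. These genes were named after their values were seen.

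Several wide regions lay in 1 gene in some cases. Ahnak carried 7 regions with a summed length of 8853 bases, Zfp292 carried 5 and the histone methyltransferase gene Nsd1 carried 4. The 17 genes with 3 regions included Kmt2c and Kmt2d, histone methyltransferases, Chd8, a chromatin remodeller, Prdm2, the co-regulator Nrip1, the repressor Spen, Son, a splicing cofactor, and Dchs1, a protocadherin. In Ahnak, denervated library 2 held 1 peak in 6 of 7 regions, and its percentiles of 57.6 to 61.4 stood above those of the other libraries. Those ran from 5.2 to 33.5 and 3.2 to 28.3 in the innervated libraries and from 3.3 to 30.4 in denervated library 1. Of the Ahnak regions, 3 were wider in both denervated libraries. In Zfp292, a zinc finger gene, innervated library 1 stood at 94.5 to 94.9, against 41.5 to 55.5, 65.4 and 48.4 in the others. The Nsd1 regions had overlapping widths, such as 1051, 951, 851 and 1150 bases in the largest (chr13:55246615-55248063). All 3 regions of Gm608 ranked high, at 94.5, 84.0, 89.6 and 81.7, and 2 of them were wider in both denervated libraries.

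Counting each current RefSeq symbol apart, 1145 (19.1%) of the 5981 genes with any region held a wide region, and gene lists are described against that share. Their counts of regions wider in denervated or innervated muscle stand beside 17.2% and 16.1% of all 1311 regions, and counts by score beside 17.1% and 17.3%. Regions of 1 gene mostly share a score, so they are not separate counts. Chromatin and transcription coregulators held one in 21 of 45 genes with any region (46.7%), with 36 regions of a median length of 824 bases. Of the 36, 5 were wider in denervated and 3 in innervated muscle, and 12 and 9 ranked higher by score, several of them regions of 1 gene. The histone methyltransferase genes Kmt2a, Kmt2b, Kmt2c and Kmt2d were all among them. Kmt2a had 1153, 1201, 1053 and 1103 bases, wider in innervated muscle by covered bases, whereas the mean from first start to last end was 150 bases larger in denervated muscle. Kmt2d had 1250, 1449, 1350 and 1599 bases in its longest region, with overlap. Of m6A writers, erasers and readers, 3 of 10 genes held a wide region: Rbm15, Rbm15b and Cbll1, subunits or partners of the methyltransferase complex. Rbm15b was covered over 1288, 1681, 1632 and 1781 bases and Cbll1 over 595, 545, 545 and 446, and 0 of the 3 regions had groups that did not overlap.

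Sequence-specific transcription factors held a wide region in 14 of 56 genes, with 2 regions wider in denervated and 4 in innervated muscle. Foxk1 and Foxk2, forkhead repressors, had 600, 700, 700 and 700 and 699, 599, 549 and 699 bases, and Klf13 had 1201, 1350, 1201 and 1400. Tead1, the factor that binds the MCAT element of muscle genes, had 648, 648, 699 and 599. None of these had groups that did not overlap. Kinases, phosphatases and signalling adaptors held one in 13 of 37 genes (35.1%), with 1 region wider in denervated and 3 in innervated muscle. The insulin receptor adaptors Irs1 (798, 947, 500 and 548 bases) and Irs2 (1884, 1688, 1193 and 1490) were both wider in innervated muscle. Their percentiles were 99.0, 97.6, 87.5 and 97.7 for Irs1 and 11.0, 65.4, 91.5 and 94.9 for Irs2, so Irs2 ranked higher in denervated muscle while being narrower there.

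Receptors of growth and differentiation signals held a wide region in 12 of 33 genes (36.4%). Of their 14 regions, 7 were wider in innervated and 3 in denervated muscle, beside 211 and 225 of all 1311. Egfr had 799, 799, 600 and 700 bases, the VEGF receptor gene Kdr 942, 893, 645 and 794, and Fzd7 the values above. The insulin receptor gene Insr had 897, 847, 598 and 896 bases and overlapped. Notch2 (649, 898, 998 and 998 bases in its longer region) and the PDGF receptor gene Pdgfrb (647, 647, 698 and 795) were wider in denervated muscle. By score, 5 of the 14 regions ranked higher in denervated and 1 in innervated muscle. Of those 5, 2 belonged to Fzd7, which was narrower in denervated muscle yet stood at 95.9 and 79.3 there against 73.5 and 57.3 for the larger region in innervated muscle. Ubiquitin ligases and deubiquitinases held a wide region in 5 of 19 genes (26.3%). Fbxo30, a ubiquitin ligase of muscle atrophy, had 596, 596, 846 and 994 bases, wider in denervated muscle, and Rnf150 had 800, 800, 351 and 501, wider in innervated muscle.

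Genes of the sarcomere, cytoskeleton and membrane scaffold held a wide region in 9 of 21 genes (42.9%). Of their 17 regions 6 were wider in denervated and 3 in innervated muscle, and 3 of the 6 belonged to Ahnak. Speg, a kinase of the triad membranes, had 1797, 1798, 1747 and 1648 bases, wider in innervated muscle by covered bases, whereas the mean of the longest peak was 25 bases larger in denervated muscle. Plec, the linker plectin, had 450, 450, 500 and 649 bases in its shorter region and 1549, 1449, 1450 and 1648 in its longer one. The nesprin gene Syne1 had 851, 799, 949 and 949. The shorter Plec region and Syne1 were wider in denervated muscle. Genes of matrix and adhesion held one in 9 of 24 (37.5%), with 2 regions wider in denervated and 3 in innervated muscle. Col6a1, a chain of collagen VI, had 597, 547, 548 and 598 bases, and Tnxb, tenascin-X, had 1596, 1646, 1498 and 1546 and was wider in innervated muscle. Vcan, versican, had 754, 902, 802 and 1150 bases in 1 region, and 0 bases common to all libraries in its other region.

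Ion channels, transporters and calcium release genes held a wide region in 6 of 25 genes (24.0%), with 0 of 7 regions wider in denervated and 3 in innervated muscle, 2 of the 3 in Kcna5. Scn4a, the voltage-gated sodium channel of skeletal muscle, had 1850, 2000, 1850 and 1800 bases in 1 peak per library and overlapped. Kcna5, a potassium channel, had 1134, 1528, 1036 and 987 bases in its longer and 395, 887, 348 and 100 in its shorter region, wider in innervated muscle in both, with innervated library 2 the highest. By score, 5 of the 7 regions ranked higher in innervated muscle, 2 of them the Kcna5 regions, which share a score. Both were at 97.2, 99.5, 89.2 and 93.3. Mitochondrial, glycogen and lipid genes held one in 3 of 14 genes (21.4%). Ppargc1a, the coactivator of mitochondrial biogenesis, had 501, 700, 550 and 600 bases, and its relative Ppargc1b had 447, 545, 692 and 692, wider in denervated muscle. Acacb, a regulator of fatty acid oxidation, had 899, 899, 799 and 849, wider in innervated muscle. The denervation response and neuromuscular junction list held a wide region in 1 of 19 genes (5.3%), Lrp4, the agrin co-receptor of the junction, with 747, 697, 698 and 599 bases and overlap.

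Markers of cell types bear on which cells the RNA came from. Of 12 muscle fibre markers, among them Acta1, Ckm and Ttn, 0 had a region of any kind, so the labelled tissue could not be checked from these peaks. Wide regions lay in 1 of 7 endothelial markers with a region (Kdr) and in 3 of 5 markers of pericytes and smooth muscle, Pdgfrb, Cspg4 and Kcnj8. Of the 4 pericyte regions, 2 were wider in denervated and 1 in innervated muscle, and the Kdr region was wider in innervated muscle. Satellite cell, fibroblast, Schwann cell and macrophage markers had regions in 4, 4, 4 and 3 genes, and wide regions in 0. Whether the share of these cells moved with the widths was not tested.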

How the data were processed

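Each of the 4 immunoprecipitated libraries had 1 deposited peak list, called by the authors for each library apart, with its own input as background. Per the file headers, the lists give position, strand, blocks, gene name and a score, the authors' own value, which ran from 0 to at most 0.023. Libraries were made from Trizol-extracted total RNA with an m6A antibody, per the labels' protocols. STAR 2.4.2a, ChIPseeker and the build mm10 are named in the submitters' processing notes. The peak caller is not given in the sources used here. In the order of the text, the lists held 9327, 10300, 9804 and 9496 peaks. Read counts were not analysed here, so depth is unknown and no interval could be given.

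Peaks sharing at least 1 base of blocks on a strand were linked with python 3.11.15, numpy 2.4.6 and pandas 2.3.3. Covered width is the number of bases under a library's peaks in a region. Score percentiles were compared between groups by two-sided exact permutation over libraries, 2 against 2. Differences within libraries, or between same-numbered libraries, were compared by two-sided exact sign-flip permutation. For widths, which enter the rule, and for counts of regions whose groups do not overlap, no test is given. The code was tested on simulated peaks. Gene names were matched to RefSeq genes of the same chromosome (GRCm38.p6): 1245 regions by symbol, 62 by an older symbol, 4 by neither.

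The members, gene lists and rules were chosen with earlier results of these data known. Named by rule were the 10 widest regions, genes with 3 or more regions, the 8 largest width differences per direction, the 8 highest and 5 lowest mean percentiles, up to 4 genes per list, and 3 regions on each side of the limit; others are said to be chosen after their values were seen, as were list members named beyond the first 4. Alternatives were other length limits, linking, list cuts, width definitions, and leaving out each library; means, a 25-base gap, ranks among shared regions and the longest peak's score were added after the data were seen.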

Additional observations from a re-analysis of the deposited data

How the results depend on the processing

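The number of regions (1311) was 1750 at a limit of 500 bases, 709 at 800, 964 with reciprocal overlap of at least 50%, 1229 with equal numbers of peaks per list, 406 when only the 50% of peaks with the smallest scores per list were kept and 195 with the largest. Regions wider in denervated and in innervated muscle (225 and 211) numbered 135 and 117 at 800 bases, 147 and 132 with reciprocal overlap, 67 and 64 with the smallest scores, 36 and 33 with the largest, and 207 and 187 with groups more than 25 bases apart (background 12.6% and 12.2%). Leaving out a library gave 322 to 529 and 266 to 464, and 1228 to 1316 regions in all. The difference in median width of 1.5 bases was -1.5 with reciprocal overlap, 20.75 at 500 bases and 42.5 with the largest scores, and ran from -24 to 27 without a library. The score difference between groups of 0.799 points was -0.0647 with the smallest and -0.566 with the largest scores, and ran from -2.10 to 3.70 without a library. The percentile of members minus others (7.98) was -5.29 with the smallest scores and 5.21 with lists cut to equal numbers of peaks, and 7.81 with the longest peak's score, which is mostly equal to the best one; without a library it ran from 8.41 to 11.6. The median place of 85.8% was 86.6 at 500 bases, 84.8 at 800, 87.1 with reciprocal overlap, 82.8 with the smallest and 87.8 with the largest scores, and 86.5 with the gene span on the same strand. The share covered in all 4 libraries (57.2%) was 61.6 with the smallest scores. The cause of these shifts was not tested.

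By the stretch from first start to last end, gaps included, the direction of the group means turned in Ankrd11 (-25), Dag1 (-25), Dchs1 (25) and Kmt2a (150). By the longest peak it turned in Peg13 (398.5) and Speg (25). Of 139 named regions, 88 kept 600 bases with reciprocal overlap, 47 with the smallest and 37 with the largest scores. With the replicate number as a block, the difference in median width was 1.5 bases, for which no test is given. The score difference was 0.799 points (two-sided exact sign-flip permutation p = 1, smallest possible 0.5). Width deviations of same-numbered libraries correlated at -0.006 over the 1311 regions. This value cannot show whether such libraries share an animal or a batch, and the labels do not tie the numbers to animals.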

Other observations

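Wide regions and wide peaks were unevenly spread over the strands. Of the 1311 wide regions 735 (56.1%) lay on the minus strand, against 49.8% of the shorter unspliced regions and 49.8% of the 27025 genes in the promoter table. All 13116 regions together had 56.1%, and regions of all 4 lists with a spliced peak 70.1%. In every list more peaks lay on the minus strand (55.6%, 56.3%, 57.6% and 57.9%). Unspliced peaks of 600 bases or more made up 7.88%, 9.73%, 7.25% and 9.82% of those on the plus strand and 10.73%, 12.30%, 11.34% and 13.99% of those on the minus strand. The mean difference was 3.42 percentage points, in the same direction in 4 of 4 libraries. Length and block number also chose the regions, so no test of it is given. Of these wide peaks, 69.9% to 77.8% per list lay in the wide regions shared by all 4 lists. The 4 values are thus not independent, and they describe these lists only.

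Over all unspliced peaks, 235 on the minus strand and 0 of 15244 on the plus strand began at the first base of the gene span, whereas 108 on the plus and 0 of 18659 on the minus strand ended at its last base. In genome coordinates, peak edges thus fell exactly on the higher end of a gene span on either strand and never exactly on its lower end. Within 48 bases of the lower end were 4 unspliced peaks on the plus and 26 on the minus strand. For the higher end these counts were 172 and 276. The cause was not tested.

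The long noncoding RNA Neat1, the scaffold of nuclear paraspeckles, held a wide region (chr19:5843231-5844829) covered over 1212, 1355, 1539 and 1549 bases, at percentiles of 98.1, 85.3, 99.4 and 99.7. Both measures were higher in both denervated libraries. The gene was chosen after its values were seen.

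Vegfa held 2 wide regions with different patterns. The region at the transcript start was covered over 1044, 995, 1044 and 995 bases. The region near the gene's 3′ end (chr17:46017788-46018781) was covered over 994 and 994 bases in innervated and 697 and 746 bases in denervated libraries, without overlap, at percentiles of 74.4, 64.0, 47.6 and 39.4. It was also chosen after its values were seen.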
